A study of Mus musculus with 6 samples.

Results

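Binding of Tgif1, Tgif2, Hdac1, Nanog and Smad3 was examined at the loci of Smad7 and Skil, a pair of genes induced by TGF-beta whose products hold the pathway back. The members were all peaks that overlapped chr18:75505000-75575000 (the Smad7 window, 70 kb) or chr3:30970000-31035000 (the Skil window, 65 kb), in mm9 coordinates. Peaks were taken by position and not by their values, but the choice was made with earlier results of these data known. The members numbered 44 of 70533 peaks, with 40 at Smad7 and 4 at Skil. The chromatin came from J1 mouse embryonic stem cells that carried BirA, the biotin ligase used for biotin-based ChIP, grown in serum with leukemia inhibitory factor, and every library shared this background. Tgif1, Hdac1 and Smad3 were pulled down with antibodies, whereas Tgif2 and Nanog were pulled down with streptavidin beads. Each factor had 1 library and no replicate, so differences between sites can be set against counting error only, and no test between conditions was possible. A mock library from BirA cells completed the 6 samples and was not analysed here.

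Smad7 is an inhibitory Smad. It binds activated TGF-beta receptors, competes with the receptor-activated Smads and recruits ubiquitin ligases to the receptors. Skil encodes SnoN, a corepressor of the Ski family that binds Smad proteins on DNA and draws in deacetylase complexes. Among the mapped factors, Smad3 is a receptor-activated Smad that carries TGF-beta, Activin and Nodal signals into the nucleus. Tgif1 and its paralog Tgif2 are homeodomain corepressors of Smad target genes, Hdac1 removes acetyl groups from histones, and Nanog is a pluripotency factor that shares many sites with Smads in embryonic stem cells.

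Each list gives a fold enrichment over background and a number of tags (sequenced fragments) for every peak, both as the authors' peak caller wrote them. These values were compared only within a list, as a rank or as the percentage of that list's peaks with a lower value. Tgif1 had 16400 listed peaks, the smallest of 30 tags, and Tgif2 had 19129, the smallest of 33 tags. Hdac1 had 16506 peaks of at least 28 tags, Nanog 17272 of at least 16 tags and Smad3 1226 of at least 11 tags. How deeply the libraries were sequenced is unknown here, because the lists hold only tags inside peaks. Intervals on tags are exact Poisson intervals and those on shares are exact Clopper-Pearson intervals, both at 95%, and they cover counting error only.

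The Smad7 window was crowded with peaks of all 5 factors. It held 11 Tgif1 peaks, 10 Tgif2 peaks, 8 Hdac1 peaks, 8 Nanog peaks and 3 Smad3 peaks. When each chromosome was divided into 37615 adjoining windows of 70 kb, at least 1 peak stood in 23.2% of them (Tgif1), 25.8% (Tgif2), 23.6% (Hdac1), 25.6% (Nanog) and 2.81% (Smad3). Windows with as many peaks as the Smad7 locus were far fewer. As many as 11 Tgif1 peaks stood in 20 windows (0.0532%), 10 Tgif2 peaks in 38 (0.101%), 8 Hdac1 peaks in 64 (0.170%), 8 Nanog peaks in 83 (0.221%) and 3 Smad3 peaks in 30 (0.0798%). Counted only over the windows with at least 1 peak of the same factor, the percentages were 0.229 (Tgif1), 0.391 (Tgif2), 0.720 (Hdac1), 0.862 (Nanog) and 2.84 (Smad3). A total of 40 or more peaks from all lists stood in 11 windows (0.0292%). The adjoining windows include gene-poor stretches and were not placed around genes, so these percentages describe the genome and not other signalling genes. The Smad7 window was also chosen with earlier results of these data known, so it is not a blindly drawn window.

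The 40 peaks formed 14 separate places where peaks overlapped by at least 1 bp, numbered here from 1 to 14 in the order of their coordinates. Sites 1, 3 and 5 carried all 5 factors, and sites 6 and 11 carried Tgif1, Tgif2, Hdac1 and Nanog without Smad3. Site 9 carried Tgif1, Tgif2 and Hdac1, sites 4 and 13 carried Tgif1 with Tgif2, site 2 carried Hdac1 with Nanog, and site 12 carried Tgif2 with Nanog. The remaining 4 places held a single factor, which was Tgif1 at sites 7 and 8, Hdac1 at site 10 and Nanog at site 14. In the whole genome 2.01% of 33152 such places carried all 5 factors and 12.8% carried at least 4, against 3 of 14 and 5 of 14 at Smad7. At least 3 places with all 5 factors stood in 11 of the 37615 windows (0.0292%). Site 1 belongs to the window only by its edge, since its summits lay 190 to 371 bp outside. Counting peaks by their summits leaves 2 places with all 5 factors, sites 3 and 5. Joining peaks by summits within 200 bp also leaves 2, but these are sites 1 and 3. The Tgif1 summit of site 5 lay 206 bp from the nearest other summit, so only site 3 kept all 5 factors under both settings. With each list cut to peaks of at least its median fold, 0 places at Smad7 carried 4 or more factors. The genome share after the same cut is not given here.

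**Figure D1:**
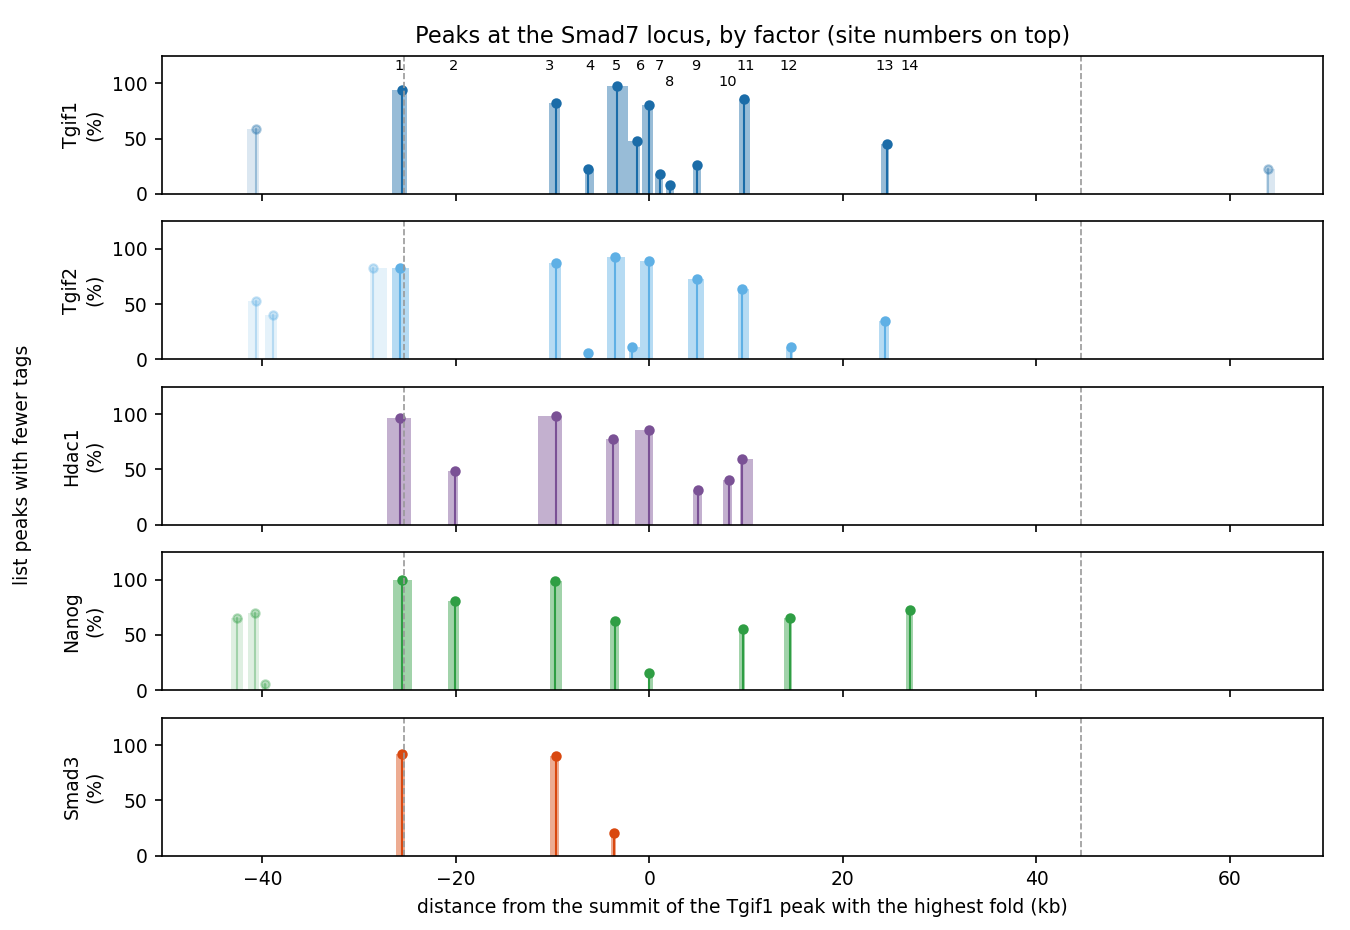
Peaks of the 5 factors at the Smad7 locus, with the distance in kb from the summit of the Tgif1 peak of highest fold on the horizontal axis and the percentage of the factor's own list with fewer tags on the vertical axis. Shaded blocks span the peaks, dots mark summits, dashed lines mark the window, pale blocks lie outside it, and site numbers stand on top. Nanog and Smad3 stand highest at sites 1 and 3, while Tgif1 and Tgif2 also have tall peaks at sites 5 and 6.

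Sites 1 and 3 were the leading places of Nanog and Smad3 in the window. Site 1 spanned chr18:75503291-75505810 and site 3 spanned chr18:75518834-75521311. Nanog had 360 tags (324 to 399) at site 1, rank 93 of its list, and 284 tags (252 to 319) at site 3, rank 177. No other Nanog peak of the window exceeded 61 tags, so these 2 stood apart from the other 6 beyond counting error. By fold they also led the window, with 70.9-fold at site 3 and 56.7-fold at site 1, higher than 91.3% and 86.6% of Nanog peaks. Against the 665 places with all 5 factors, Nanog ranked 60 by tags and 344 by fold at site 1. At site 3 it ranked 101 by tags and 271 by fold, so its fold was not unusual for such places.

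Smad3, the signal-carrying Smad, followed the same order. It had 66 tags (51.0 to 84.0) at site 1 and 61 tags (46.7 to 78.4) at site 3, ranks 96 and 118 of 1226, and the intervals of these 2 peaks overlapped. The third Smad3 peak, at site 5, had 18 tags (10.7 to 28.4), below both. In fold the 3 Smad3 peaks were close to each other, with 10.1-fold at site 1, 9.72-fold at site 3 and 8.61-fold at site 5, all near the list median of 9.57. Against the 665 places with all 5 factors, Smad3 ranked 72 and 88 by tags at sites 1 and 3, but 308 and 340 by fold.

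Hdac1, the deacetylase, also had its 2 largest tag numbers at these places, with 145 tags (122 to 171) at site 3 and 119 (98.6 to 142) at site 1, ranks 225 and 494 of its list. The next Hdac1 peak in the window, at site 6, had 79 tags (62.5 to 98.5). Its fold did not single out the same places, since site 1 was at 6.85-fold, higher than only 10.1% of Hdac1 peaks, and site 3 at 13.1-fold, higher than 68.0%.

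Tgif1 and Tgif2 were present at sites 1 and 3 with many tags and a low fold. Tgif1 had 132 tags (110 to 157) and 7.85-fold at site 1, and 92 tags (74.2 to 113) and 10.2-fold at site 3. Its fold there exceeded 10.7% and 29.1% of Tgif1 peaks, although its tags exceeded 93.9% and 82.4%. Tgif2 had 97 tags (78.7 to 118) and 5.95-fold at site 1, a fold that only 1.05% of its list fell below, and 110 tags (90.4 to 133) and 9.64-fold at site 3.

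The corepressors had their leading single peaks at other places. At site 5, chr18:75525894-75528130, stood the peak with the most tags of each, with 170 (145 to 198) for Tgif1, rank 397 of its list, and 133 (111 to 158) for Tgif2, rank 1328. These leads were within counting error, since the Tgif1 interval overlapped that of its peak at site 1, and the Tgif2 interval overlapped those of its peaks at sites 1, 3 and 6. The 2 Tgif2 peaks of site 6 together held 154 tags, more than site 5. At site 5 Tgif1 stood at 20.4-fold and Tgif2 at 14.9-fold. Hdac1 had its highest fold of the window at this site, 14.4, with 68 tags (52.8 to 86.2). Nanog had 38 tags (26.9 to 52.2) and 9.04-fold there, higher than 63.0% of its list by tags but 6.19% by fold. Among the 665 places with all 5 factors, Tgif1 at site 5 ranked 68 by tags and 237 by fold, and Nanog ranked 637 by tags and 664 by fold.

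Site 6, chr18:75528193-75530766, carried the highest fold of Tgif1 and of Tgif2 at the locus. Tgif1 reached 38.4-fold with 88 tags (70.6 to 108), higher than 96.1% of its list by fold and rank 634. Tgif2 reached 41.4-fold with 117 tags (96.8 to 140), higher than 95.3% and rank 904. Hdac1 covered the same place with 79 tags at 10.5-fold, close to its list median of 10.7, and Nanog had 19 tags (11.4 to 29.7) at 15.7-fold, 3 above the smallest Nanog peak. A weaker pair of peaks in the left part of site 6 had 53 tags at 11.4-fold for Tgif1 and 37 tags at 11.4-fold for Tgif2.

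Site 11, chr18:75539575-75541070, came next by fold for both paralogs. Tgif1 had 101 tags (82.3 to 123) at 32.5-fold, higher than 93.4% of its list, and Tgif2 had 69 tags (53.7 to 87.3) at 22.7-fold, higher than 79.1%. Hdac1 had 53 tags at 12.5-fold, higher than 64.0% of its list, and Nanog had 33 tags at 22.1-fold, higher than 46.0%. Site 9, chr18:75534378-75536057, was weak for all 3 of its factors by fold, with 8.13-fold and 41 tags for Tgif1, 8.26-fold and 80 tags for Tgif2 and 6.32-fold and 39 tags for Hdac1.

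Expressed as shares of each factor's own tags in the window, a grouping of sites chosen after their values were seen, the lists fell into different patterns. Sites 1 and 3 together held 72.9% (69.9 to 75.8) of 883 Nanog tags and 87.6% (81.1 to 92.5) of 145 Smad3 tags. They held 44.5% (40.5 to 48.6) of 593 Hdac1 tags, 27.1% (24.0 to 30.4) of 763 Tgif2 tags and 26.8% (23.8 to 29.9) of 837 Tgif1 tags. The intervals of Nanog and Smad3 lay above that of Hdac1, which lay above those of both Tgif proteins. These shares are not divided by peak width. In tags per kb Hdac1 differed little, with 49.6 and 59.0 at sites 1 and 3 and 50.7 and 42.3 at sites 5 and 6. Nanog had 187 and 229 per kb at sites 1 and 3, and 37.3 and 40.3 at sites 5 and 6. Sites 5 and 6 turned the order round for the Tgif proteins, Hdac1 and Nanog, with 37.2% (33.9 to 40.5) for Tgif1, 37.6% (34.2 to 41.2) for Tgif2, 24.8% (21.4 to 28.5) for Hdac1, 12.4% (7.53 to 18.9) for Smad3 and 6.46% (4.93 to 8.28) for Nanog. Tgif1 and Tgif2 differed by less than their intervals in both groups of sites. Site 6 held more than 1 peak of each Tgif protein, which adds to its share. In tags per kb Tgif1 had 84.9 at site 1, 78.3 at site 3, 80.1 at site 5, and 44.0 and 77.0 at site 6. Tgif2 had 56.4 at site 1, 92.4 at site 3, 70.3 at site 5, and 34.6 and 86.7 at site 6. Per kb, sites 5 and 6 thus did not stand above sites 1 and 3 for the Tgif proteins.

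The order of the shares was the same without the site at the window's edge. Without site 1, site 3 alone held 77.2% (66.4 to 85.9) of Smad3 tags and 54.3% (49.9 to 58.6) of Nanog tags, compared with 30.6% (26.5 to 35.0) of Hdac1 tags, 16.5% (13.8 to 19.6) of Tgif2 tags and 13.0% (10.7 to 15.8) of Tgif1 tags. This is no test of the pattern, because site 3 was chosen from these same tags. Smad3 then had only its peaks at sites 3 and 5, with 61 and 18 tags, whereas Tgif1 tags were divided over more peaks. Tags outside listed peaks are not part of these shares, and a list with a higher floor leaves out weaker places.

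**Figure D2:**
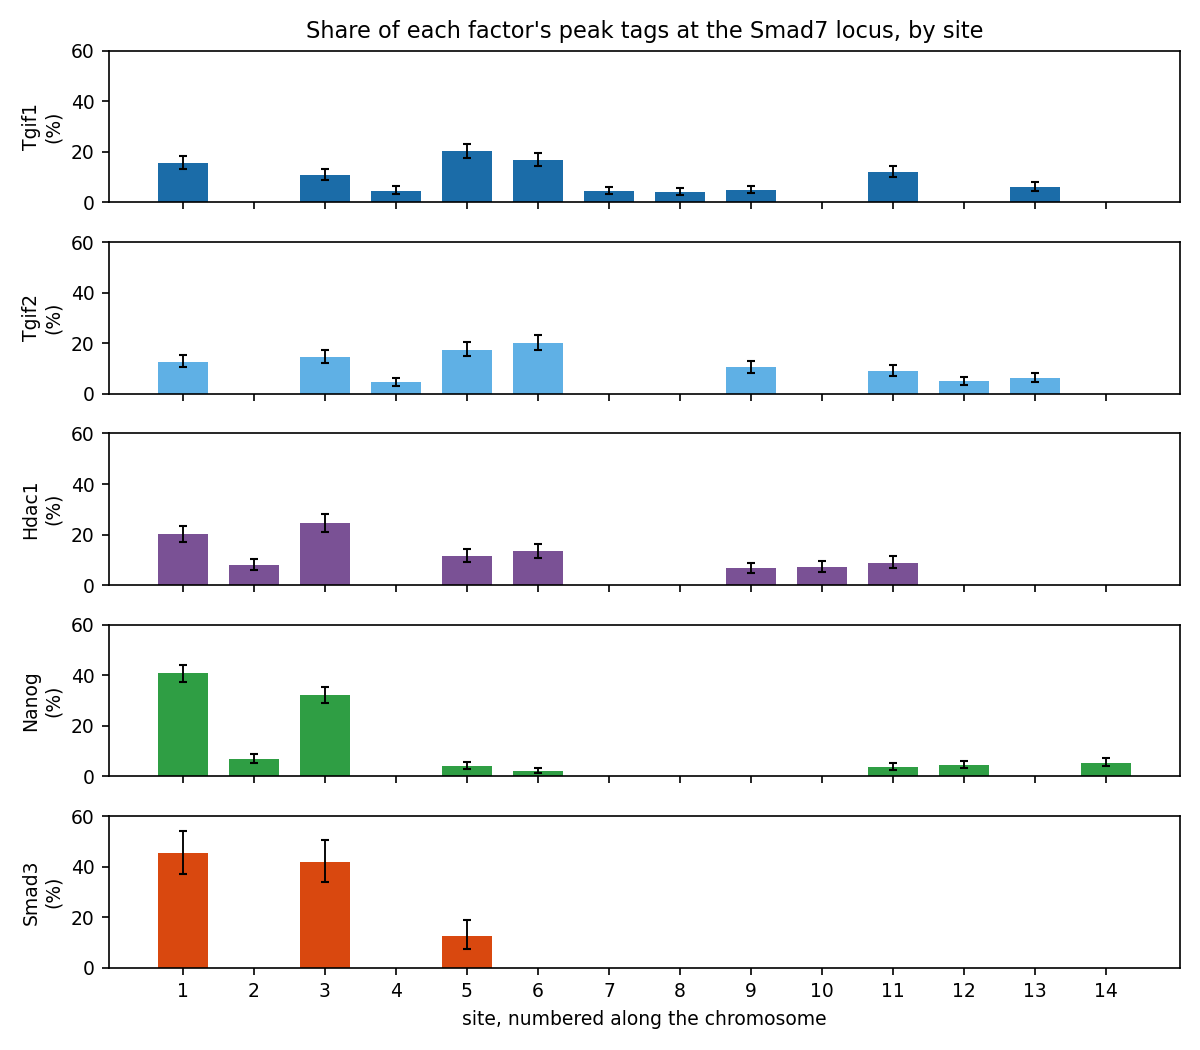
Share of each factor's peak tags in the Smad7 window that each of the 14 sites holds, in percent, with bars for the share and lines for the 95% Clopper-Pearson interval. Nanog and Smad3 tags concentrate at sites 1 and 3, with 40.8% and 45.5% at site 1, whereas the largest Tgif1 share is 20.3% at site 5.

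The remaining peaks were mostly small. The Tgif1 peaks without any partner, at sites 7 and 8, had 37 and 33 tags, 7 and 3 above the smallest peak of the list, and stood at 10.5-fold and 6.78-fold. Site 4 had 39 tags for Tgif1 and 35 for Tgif2, 9 and 2 above the smallest peaks of those lists, but Tgif2 reached 16.2-fold there, higher than 59.8% of its list. Site 13 had 51 Tgif1 tags and 48 Tgif2 tags at 7.20-fold and 8.78-fold. Site 12 had 37 Tgif2 tags and 40 Nanog tags, and Hdac1 alone had 43 tags at site 10.

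At its places without the Tgif proteins Nanog stood below its leading peaks at sites 1 and 3, which carried both Tgif proteins. It had 61 tags (46.7 to 78.4) at 27.1-fold at site 2, where Hdac1 had 47 tags at 7.34-fold, and 48 tags (35.4 to 63.6) at 31.1-fold at site 14, where it stood alone. By fold these ranked 4 and 3 among its 8 peaks, above its peaks at sites 5, 6, 11 and 12, which all carried Tgif2. The intervals on tags of sites 2 and 14 overlapped those of several of these peaks.

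Over all 14 places, the partners of the Smad7 peaks were counted beside those of the complete lists. Tgif2 overlapped 9 of 11 Tgif1 peaks, Hdac1 overlapped 7 and Nanog 5, against 79.2%, 66.1% and 36.7% of all Tgif1 peaks. Smad3 overlapped 3 of 11 Tgif1 peaks, or 27.3% (6.02 to 61.0), against 5.04% in the complete list, and 3 of 8 Nanog peaks, or 37.5% (8.52 to 75.5), against 6.43%. The lower ends of these intervals lay just above the shares of the complete lists, and peaks at 1 locus are not independent. Tgif1 overlapped 9 of 10 Tgif2 peaks against 68.0%, and Hdac1 overlapped 7 of 10 against 59.9%. Apart from Smad3, these shares of the complete lists lay inside the intervals of the locus. The calls depended on the measure of overlap. By summits within 200 bp, Smad3 met 2 of 11 Tgif1 peaks, or 18.2% (2.28 to 51.8), and the list share of 4.39% lay inside that interval, while Smad3 still met 3 of 8 Nanog peaks against 5.96%. By the same measure Tgif2 met 6 of 8 Nanog peaks, or 75.0% (34.9 to 96.8), against 27.2%. Seen from the other side, the same 6 pairs were 60% (26.2 to 87.8) of 10 Tgif2 peaks, against 24.5%. Both intervals lay above the list share, the second only just. Tgif2 met 6 of 11 Tgif1 peaks, or 54.5% (23.4 to 83.3), against 62.6%. Hdac1 met 4 of 11, or 36.4% (10.9 to 69.2), against 48.7%. These 2 shares were below those of the list, which lay inside their intervals.

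The reverse counts, again by 1 bp of overlap, were as follows. Of the 8 Hdac1 peaks, 6 met Tgif1 and 6 met Tgif2, against 64.6% and 68.4% of all Hdac1 peaks. Of the 8 Nanog peaks, 5 met Tgif1, 6 met Tgif2 and 6 met Hdac1, against 35.8%, 36.7% and 45.9% of all Nanog peaks, and each of these list shares lay inside the interval of the locus. All 3 Smad3 peaks met Tgif1, Tgif2, Hdac1 and Nanog, against 67.5%, 63.7%, 81.1% and 90.3% of all Smad3 peaks, and 3 peaks allow any share from 29.2% upwards.

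Fold and tags placed the same Smad7 peaks differently in their lists. By tags, 5 of 11 Tgif1, 6 of 10 Tgif2, 5 of 8 Hdac1, 7 of 8 Nanog and 2 of 3 Smad3 peaks stood above the median of their list. By fold it was 3 of 11, 4 of 10, 3 of 8, 4 of 8 and 2 of 3. The median Tgif1 peak of the window stood at 10.5-fold against 13.3 in the complete list and held 53 tags against 54, so the locus was marked by the number of Tgif1 peaks more than by their strength. Peak width moved with tags, with rank correlations over each complete list from 0.636 for Nanog to 0.809 for Smad3, and site 1 had an Hdac1 peak of 2401 bp against a list median of 1038 bp. Divided by width, the Nanog peaks at sites 1 and 3 still exceeded 97.3% and 98.5% of the list in tags per kb. The Tgif2 peak at site 1 then exceeded 38.3% of its list, compared with 82.6% by tags.

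**Figure D3:**
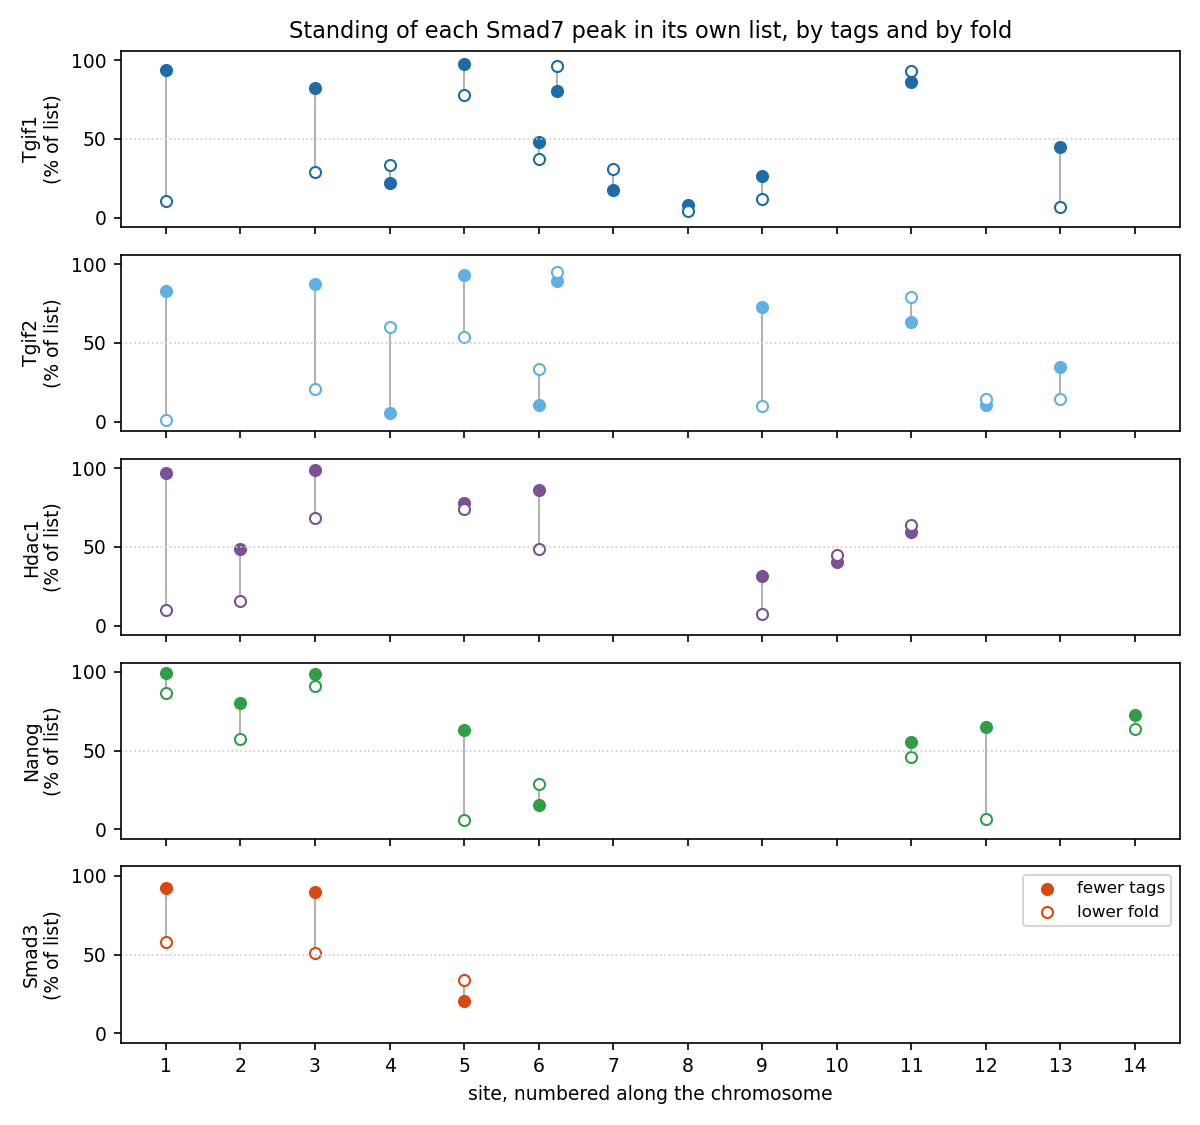
Percentage of each factor's own list with fewer tags (filled) or a lower fold (open) than each Smad7 peak, by site. For Tgif1, Tgif2 and Hdac1 the gap is widest at site 1, where Tgif1 exceeds 93.9% of its list by tags and 10.7% by fold, and it is small for Nanog at site 3 (99.0% and 91.3%).

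Summits of the factors lay close together at some shared sites and apart at others. At site 3 all 5 summits fell within 95 bp, a narrower spread than the median of 129 bp over the 485 places in the genome with exactly 1 peak of each factor. At site 1 they spread over 181 bp, with Smad3 and Nanog 37 and 43 bp from the Tgif1 summit and Tgif2 and Hdac1 177 and 181 bp from it. At site 5 they spread over 351 bp, wider than 85.4% of those 485 places, because the Tgif1 summit stood 206 bp from Nanog, 216 bp from Tgif2, 280 bp from Smad3 and 351 bp from Hdac1.

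At site 6 the strong Tgif1 summit had Tgif2 at 12 bp, Nanog at 16 bp and Hdac1 at 27 bp. At site 11 the distances from Tgif1 were 113 bp to Nanog, 214 bp to Tgif2 and 215 bp to Hdac1, so Tgif2 and Hdac1 lay beside each other and apart from Tgif1. At site 9 Tgif2 lay 4 bp and Hdac1 110 bp from Tgif1. Among the 5 sites with Tgif1, Tgif2, Hdac1 and Nanog, the one with the highest Tgif fold thus had these 4 summits closest together.

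**Figure D4:**
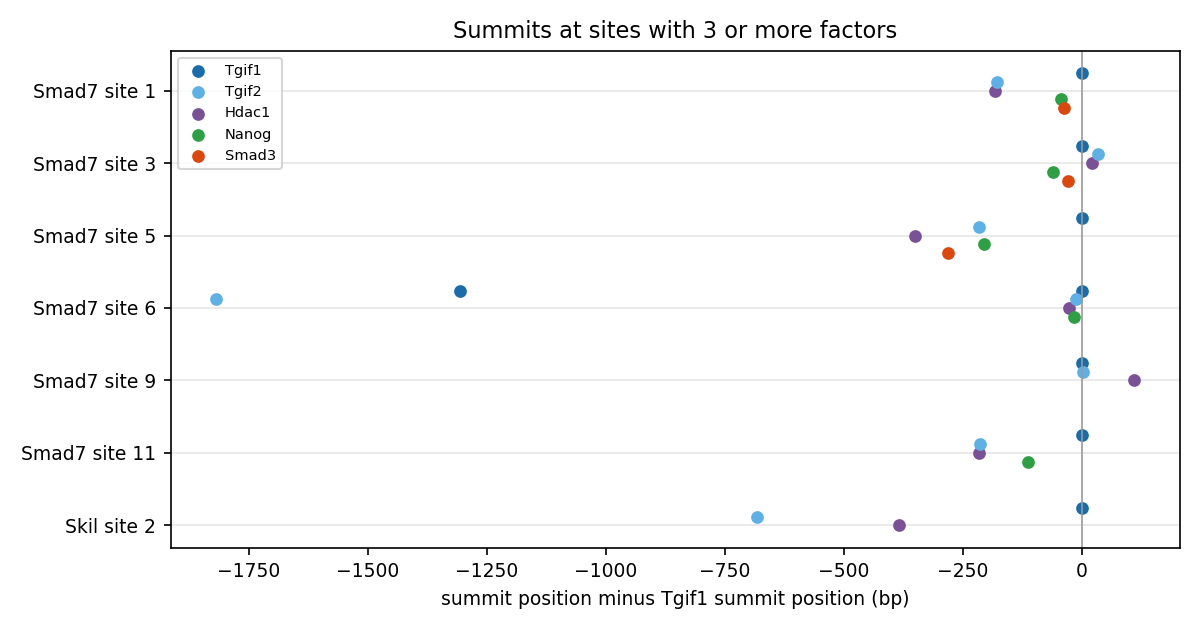
Position of each factor's summit minus that of the Tgif1 summit, in bp, at the sites with at least 3 factors at Smad7 and Skil, with 1 point per peak. Summits fall within 95 bp at Smad7 site 3, and at Skil site 2 the Hdac1 and Tgif2 summits lie 384 and 683 bp from Tgif1; the far points on the left at Smad7 site 6 are the weaker pair of Tgif peaks there.

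Skil was sparse. Its window held 1 peak each of Tgif1, Tgif2, Hdac1 and Nanog and no Smad3 peak. Of 40509 adjoining windows of 65 kb, at least 1 peak stood in 22.3% (Tgif1), 24.7% (Tgif2), 22.6% (Hdac1), 24.3% (Nanog) and 2.63% (Smad3). Tgif1, Tgif2, Hdac1 and Nanog stood together in 11.3% of windows, and in 9.36% they did so without Smad3. The number of peaks at Skil was therefore common in the genome, and the absence of a listed Smad3 peak does not show that Smad3 was absent, since most windows hold none and the list is short.

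Tgif1, Tgif2 and Hdac1 shared 1 site at Skil (site 2), chr3:30992467-30995138, a combination found at 14.8% of the places in the genome. Tgif1 had 120 tags (99.5 to 143), rank 1376 of its list, at 11.4-fold, and Hdac1 had 111 tags (91.3 to 134), rank 665, at 10.01-fold. Tgif2 had 62 tags (47.5 to 79.5) at 6.81-fold, higher than 55.2% of its list by tags and 3.43% by fold. The site was broad, with peaks of 2026 bp for Tgif1, 2470 bp for Hdac1 and 1230 bp for Tgif2, and the 3 fold values lay below the median of their lists. In tags per kb Tgif1 exceeded 52.9%, Hdac1 49.9% and Tgif2 22.0% of their lists, so the high tag ranks went with width.

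The summits at this Skil site did not coincide. Hdac1 lay 384 bp and Tgif2 683 bp from the Tgif1 summit, and this spread of 683 bp exceeded that of 91.0% of the 4521 comparable places in the genome, whose median was 128 bp. Joined by summits within 200 bp in place of overlap, the 4 Skil peaks would form 4 separate places. The Nanog peak, chr3:30988990-30989543 (site 1), lay 4580 bp from the Tgif1 summit with 22 tags (13.8 to 33.3) at 10.5-fold, higher than 28.1% of its list by tags and 11.2% by fold. Nanog alone occupied 22.6% of the places in the genome.

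**Figure D5:**
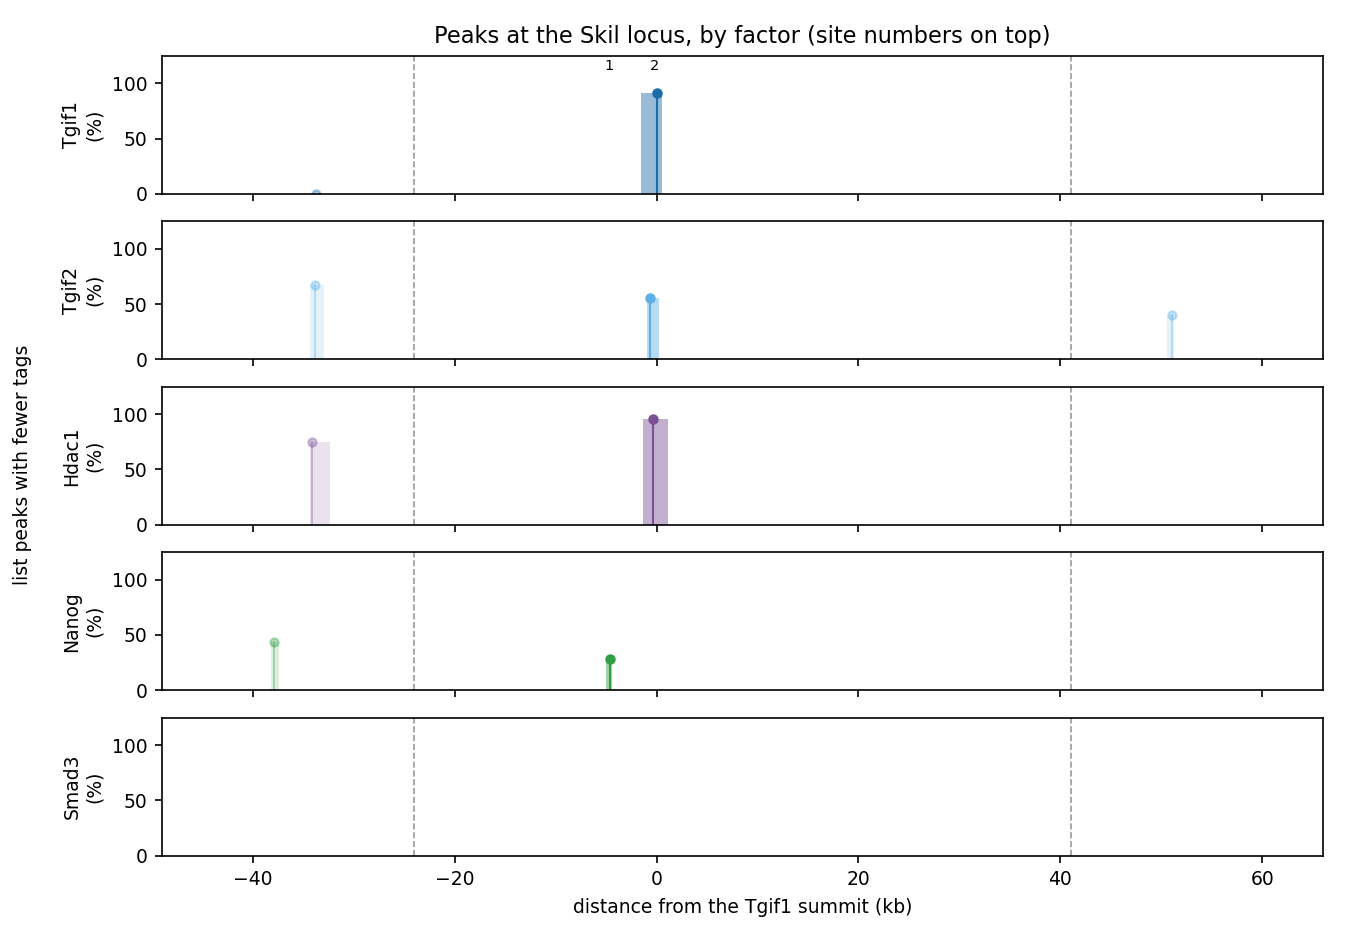
Peaks of the 5 factors at the Skil locus, with the distance in kb from the Tgif1 summit on the horizontal axis and the percentage of the factor's own list with fewer tags on the vertical axis; symbols are as in the map of the Smad7 locus. Tgif1 and Hdac1 stand at 91.4% and 95.9% at site 2, Nanog is at site 1, and Smad3 has no peak.

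Side by side, both windows held a site where peaks of Tgif1, Tgif2 and Hdac1 overlapped, and Smad3 was listed at Smad7 but not at Skil. Places with these 3 factors alone made up 14.8% of those in the genome. By summits within 200 bp, the 3 peaks at Skil did not meet each other. The Tgif1 peak at Skil had 120 tags. Its interval overlapped those of the Smad7 peaks at sites 1 (132 tags), 3 (92) and 11 (101) and the stronger peak at site 6 (88). In tags per kb the Skil peak exceeded 52.9% of the list, against 87.5%, 82.6%, 90.7% and 81.3% for these Smad7 peaks. By fold it exceeded 37.1%, against 10.7%, 29.1%, 93.4% and 96.1%. The Smad7 peak at site 5, with 170 tags (145 to 198), lay above the Skil interval (99.5 to 143). That peak exceeded 84.2% of the Tgif1 list in tags per kb and 77.7% by fold. The Nanog peak at Skil had 22 tags, close to the weakest Nanog peak at Smad7 (19 tags), and its interval lay below those of sites 1, 2, 3 and 14. The 2 windows differ in length by only 5 kb, against 40 peaks in the Smad7 window and 4 in the Skil window.

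The peaks cannot be placed in an exon, intron or promoter here, because gene annotation in mm9 coordinates was not part of the analysis. In the GRCm38.p6 annotation, read for gene order alone, the protein-coding gene after Smad7 is Ctif, and the non-coding genes Gm20544 and Gm41776 stand directly before and after Smad7. Skil has the non-coding gene Gm33694 before it and Cldn11 after it. Which of these genes reach into the windows was not determined, so a peak at a locus is not assigned to its gene.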

How the data were processed

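One deposited peak list per factor was used for 5 factors, and 1 library stood behind each. BWA 0.5.9-r16 and MACS were used with the mm9 build, per the submitters' processing notes, which give no settings, and the control and threshold of the peak calls are not given in the sources used here. The lists have no header. The deposited fold enrichment is a ratio of each peak to its background, and the deposited count is the number of tags in the peak. Both were identified from their values, and both are the authors'. Starts may count from 0 or 1, which leaves 1 bp of uncertainty.

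Members, groups of sites and settings were chosen with earlier results of these data known. Overlap means at least 1 bp. Every member was accounted for, and given in full were the peaks of sites with 3 or more factors, the leading peaks of each factor and every Smad3 peak. Windows were tiled over the range the lists cover on each chromosome. No significance test was run. Overlap counts were checked with bedtools 2.31.1 in 20 pairs of lists, of which 0 differed. The counting was also tested on random subsets of the Tgif1 list, on randomly drawn windows counted directly, and on that list merged with a copy of itself. Sequence under summits and other genes of the pathway were planned but not run, because mm9 sequence and annotation were not used. Python 3.11.15, NumPy 2.4.6, pandas 2.3.3, SciPy 1.17.1 and matplotlib 3.10.9 were used.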

Additional observations from a re-analysis of the deposited data

How the results depend on the processing

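With lists restricted to folds no lower than their median, there were 3 Tgif1, 4 Tgif2, 3 Hdac1 and 4 Nanog peaks at Smad7, in 8 sites of which 0 had 4 or more factors and 0 all 5, and 0 peaks and 0 sites at Skil. The sites with 4 or more factors at Smad7 therefore include peaks below the median fold of their list. The genome share of such sites after the same cut is not given here, so this is not shown to be particular to Smad7. Restricted by tags in the same way, 5 Tgif1 and 6 Tgif2 peaks stayed at Smad7 and 0 Nanog peaks at Skil. Ranked by tags in place of fold, the leading Smad7 peak exceeded 97.5% of the Tgif1 list (96.1% by fold), 92.9% of Tgif2 (95.3%), 98.6% of Hdac1 (74.3%), 99.5% of Nanog (91.3%) and 92.0% of Smad3 (58.2%). At Skil it exceeded 91.4% for Tgif1 (37.1%), 55.2% for Tgif2 (3.43%), 95.9% for Hdac1 (44.1%) and 28.1% for Nanog (11.2%). Widening the windows by 25 kb gave 2 Tgif1, 3 Tgif2, 2 Hdac1 and 2 Nanog peaks at Skil. Joining summits within 200 bp gave 4 sites at Skil, and 6 overlap shares there went to 0. Of 153 alternative values 118 stayed within 1.5 times their count or within their interval. Among the 153, 72 were overlap shares of few peaks with wide intervals, and 6 of these moved. Wide intervals and counts of 0 at Skil left little room to move, so the total is no measure of robustness. Counting peaks by summit was added after the data were seen. The cause of these moves was not tested. No paired analysis was possible because each factor had 1 library.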

Other observations

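Just outside the windows, within 25 kb of their edges, the lists held further peaks. Beside Skil, Tgif1, Tgif2 and Hdac1 shared a second place whose Tgif1 summit lay 33774 bp before that of Skil site 2. Tgif1 had 30 tags there, the smallest number in its list, at 13.6-fold, while Tgif2 had 73 tags at 15.9-fold and Hdac1 had 65 tags at 6.28-fold. A Tgif2 peak on the other side had 51 tags at 17.4-fold.

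Before the Smad7 window, Tgif1, Tgif2 and Nanog shared a place with 61, 60 and 44 tags, its Tgif1 summit 40.7 kb from that of the Tgif1 peak of highest fold, and no Hdac1 or Smad3 peak lay there. A further Tgif2 peak with 96 tags at 11.2-fold ended 1747 bp before the window, next to site 1.

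Most places with all 5 factors stood alone, since 546 of 665 had no other such place within 25 kb. Whether they stood in groups more often than random spacing would give was not tested. Of the 665 in the genome, 35 (5.26%) had at least 2 others within 25 kb, and Smad7 sites 1, 3 and 5, which span 24839 bp, were 3 of these. The distance was chosen after the spacing at Smad7 had been seen.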
